A study of Rattus norvegicus with 4 samples.

Results

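The early growth response genes Egr1, Egr2 and Egr3 encode zinc finger transcription factors. They were followed in rat kidneys after cold perfusion alone and after cold and warm perfusion with no supplement, with heparin or with PPS. The genes were chosen by name, and 4 probe sets of the array carry 1 of these 3 symbols among 14217 genes with a symbol. Egr1 and Egr2 had a probe set above the floor (defined below) and Egr3 did not. Both measured genes were highest on the warm array and lower on the heparin and then the PPS array. Egr1 was lowest on the cold array, and Egr2 was below the floor on both the PPS and the cold arrays.

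Egr factors are immediate early genes, which cells transcribe within minutes of a stimulus from transcription factors that are already present. Growth factors, stretch, oxidants and reoxygenation activate MAP kinases, which act on ternary complex factors of the Elk family bound beside serum response factor on the promoter. The Egr proteins then bind GC-rich sites through 3 zinc fingers and are held back by the corepressors Nab1 and Nab2, of which Nab2 is itself an Egr target. Egr1 is known in ischaemic organs as a regulator of inflammatory, coagulation and growth factor genes.

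Each of the 4 groups was measured on 1 Affymetrix array, with RNA of 3 kidneys from male Wistar rats of 300 to 480 g mixed in equal molar amounts. Every kidney had 29 min of warm ischaemia in the body after the donor was exsanguinated, a model of donation after cardiac death, and then 3 h of machine perfusion with cold University of Wisconsin preservation solution. The cold group ended there. The warm, heparin and PPS groups were then perfused for 30 min with a warm, oxygenated salt solution, a modified Krebs-Henseleit buffer. In the heparin (low molecular weight) and PPS groups the agent was present at 10 IU/ml throughout both perfusions. PPS is given in the labels by its abbreviation only. The model is an isolated organ perfused with buffer, and its cold group lacks both the warm step and its extra time, which cannot be told apart. No group had a replicate array, and a difference between single arrays therefore has no error and no p-value.

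The promoters of the 2 measured members are shown first because they hold the elements through which immediate early genes are known to be switched on. The sequences are the 250 bases before the annotated gene start in RefSeq's rat assembly GRCr8, 5′ to 3′ on the gene's strand. Capitals mark CArG boxes, the serum response factor motif in which a run of A or T stands between CC and GG, and TGACG, the core of the cyclic AMP response element, on either strand. Egr1 lies at chr18:26736828-26737077 on the plus strand and Egr2 at chr20:21054442-21054691 on the minus strand.
Egr1: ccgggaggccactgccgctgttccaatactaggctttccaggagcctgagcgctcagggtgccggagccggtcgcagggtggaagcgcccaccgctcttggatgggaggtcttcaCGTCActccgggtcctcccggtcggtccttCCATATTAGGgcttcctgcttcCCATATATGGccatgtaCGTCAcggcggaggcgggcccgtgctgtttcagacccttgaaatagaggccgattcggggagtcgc
Egr2: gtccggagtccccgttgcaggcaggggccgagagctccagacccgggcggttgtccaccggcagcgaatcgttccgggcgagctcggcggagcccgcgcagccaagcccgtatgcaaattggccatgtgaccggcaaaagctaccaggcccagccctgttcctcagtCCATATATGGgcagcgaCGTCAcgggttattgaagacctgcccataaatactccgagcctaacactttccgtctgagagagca

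Egr1 held 2 CArG boxes and 2 TGACG matches, and Egr2 held 1 of each. The CArG box of Egr2 and the nearer one of Egr1 had the same letters, CCATATATGG, and the same place, from 83 to 74 bases before the start. In both genes a TGACG match on the opposite strand followed at 66 to 62 bases before the start. The other CArG box of Egr1, CCATATTAGG, lay 105 to 96 bases before the start, and its other TGACG match lay at 135 to 131. GGAAG, the core of many Ets sites on either strand, matched 4 times in Egr1, with 2 of the matches overlapping a CArG box, and 0 times in Egr2. Other forms of the Ets core were not searched. Just before its CArG box Egr2 reads ttcctcagt, which holds GGAA on the opposite strand. The 0 therefore does not show that Egr2 lacks an Ets site there. GCGTGGGCG, the consensus Egr site, and TATAAA were in neither window.

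Across 27457 promoters of the same length, 1.5% held a CArG box, 0.0255% held at least 2, 19.0% held TGACG, 63.3% held GGAAG, 0.514% held GCGTGGGCG and 13.1% held TATAAA. A CArG box together with TGACG was found in 68 promoters, or 0.248%. Only the promoters of Egr1 and Egr2 held both at these 2 places, an arrangement that was looked for after it had been seen in these genes. At the same distance from each other, but elsewhere in the window, both were also found in Dusp5, a MAP kinase phosphatase. These matches are letters in a window, not measured binding.

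**Figure D1:**
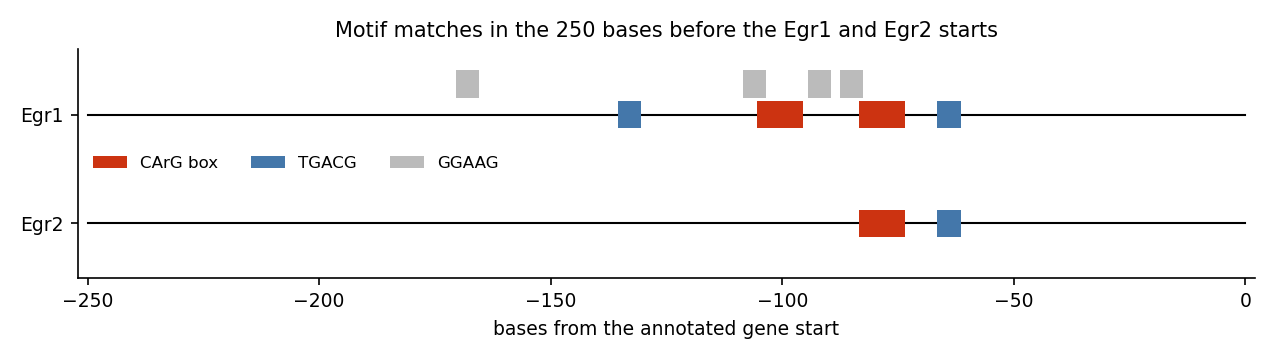
Motif matches on either strand in the 250 bases before the annotated starts of Egr1 and Egr2, by distance from the start. Red boxes are CArG boxes, blue boxes TGACG and grey boxes GGAAG (drawn above the line); both genes have a CArG box at 83 to 74 and TGACG at 66 to 62 bases before the start.

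The values below are log2 expression values as deposited, after GCRMA, which corrects background, normalizes and summarises the probes of a probe set. GCRMA puts probe sets with little signal at a shared lowest value of 2.11, so values under the median of all values, 4.51, were raised to it, and this level is called the floor. Differences were taken after the floor, and a gene was called once its log2 difference reached 1 in either direction, a 2-fold change in level. Levels of different probe sets are not compared with each other.

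Egr1, the family member most often described in injured kidney, was read by probe set 1368321_at. Its log2 value was 8.87 after cold perfusion, 14.02 after warm perfusion, 13.02 with heparin and 12.33 with PPS. All 4 values were well above the floor, and every warm-perfused array lay above the cold one. The order was warm, heparin, PPS and cold, and with 1 array per group it cannot be said which neighbours in it differ beyond the spread between kidneys.

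Egr2, known for its part in myelination and in immune cells, was read by probe sets 1387306_a_at and 1398266_a_at. The former had log2 values of 2.41 after cold perfusion, 9.55 after warm perfusion, 7.29 with heparin and 4.40 with PPS. It was thus above the floor on the warm and heparin arrays only, and the PPS value lay just below the floor. The other probe set had 2.13 after warm perfusion and 2.11 in each of the cold, heparin and PPS groups. It was below the floor throughout, so what follows for Egr2 rests on 1 of its 2 probe sets. As the median of both probe sets, the warm minus cold log2 difference of Egr2 would be 1.33, not 5.04.

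Egr3, known for its part in the development of muscle spindles, had a log2 value of 2.11 on all 4 arrays by its only probe set, 1369545_at. Egr4, which is not among the 3 genes but completes the family, lay between 2.11 and 2.17 on all arrays by 1387442_at and at 2.11 by 1375784_at. For both genes there was no signal above the background model in any group, and no difference can be given. This does not show that they were not transcribed, because the array may not detect a low level.

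**Figure D2:**
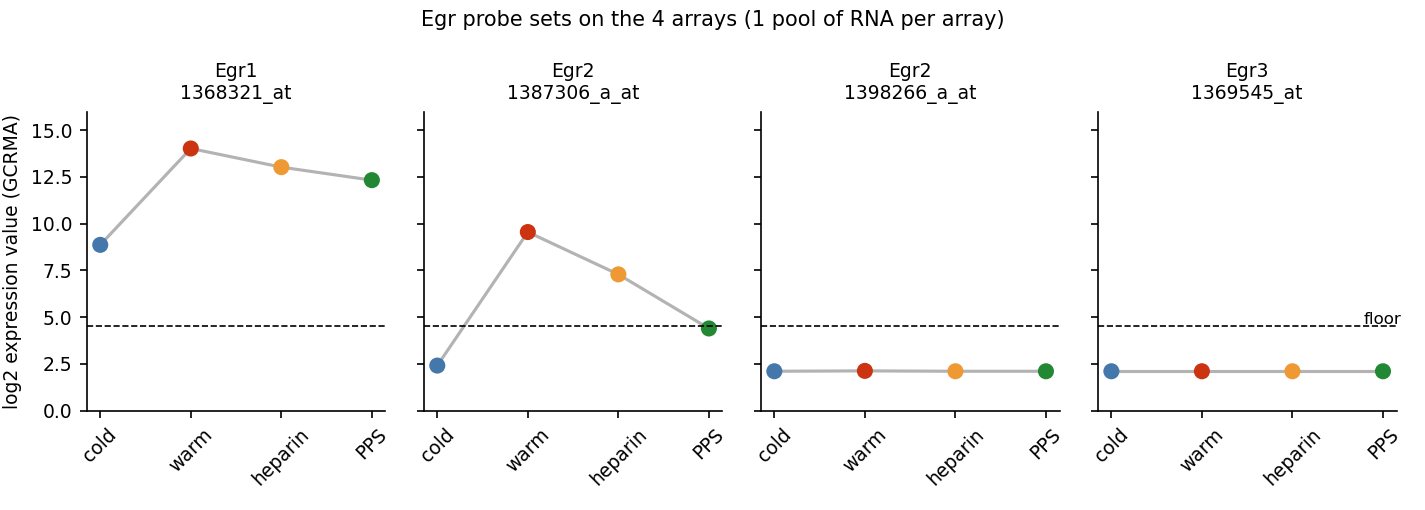
Log2 expression values of the 4 Egr probe sets on the cold, warm, heparin and PPS arrays, 1 point per array of pooled RNA; grey lines only join the points and the dashed line is the floor of 4.51. Egr1 peaks at 14.02 on the warm array, Egr2 reaches 9.55 there by 1387306_a_at, and the other Egr2 probe set and Egr3 stay near 2.11.

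Warm against cold perfusion asked what the warm oxygenated step adds. Egr1 was 35.6-fold higher on the warm than on the cold array, a log2 difference of 5.15. Egr2 was at least 32.9-fold higher, with the cold side at the floor. Both measured members were called higher, where 2.48% of all genes were. Egr2 passed the floor on the warm and heparin arrays only, so after the floor its difference from the cold array could not be negative. All genes here means the 9393 that exceeded the floor in 1 or more groups. Egr1 had the 9th largest positive difference of these genes, and the median of all genes was -0.0032.

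Both supplemented arrays were also set against the cold array, which all 3 comparisons share. Egr1 was 17.8-fold higher on the heparin array and 11.0-fold higher on the PPS array, the 6th and 7th largest positive differences. In these comparisons 1.17% and 1.03% of all genes were called higher. Egr2 was at least 6.86-fold higher on the heparin array than on the cold array, a call lost with the same floor at the 60th percentile (0.56) and as the median of both probe sets (0.19). On the PPS array Egr2 was below the floor, as on the cold array, so no fold is given; the values as deposited, 4.40 and 2.41, differ by 1.98.

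A limma fit compared the 3 warm-perfused arrays with the cold array, in which the supplement effects form part of the spread. Egr1 had a log2 difference of 4.26 ± 0.79 (SE) and an adjusted p of 0.22, with an unadjusted p of 0.012 by limma. Egr2, without the floor, had 4.67 ± 2.41 and an adjusted p of 0.45 by limma. Neither passed the adjusted threshold of 0.05. Egr1 was higher than cold on 3 of 3 warm-perfused arrays, but all 3 were set against the same cold array and are not independent. Egr2 was above the floor on 2 of these 3, and on the third it was below it, as on the cold array. By limma, 0 genes were called higher and 1 lower, and 1523 of 9393 had an unadjusted p under 0.05.

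The heparin and PPS comparisons asked what the supplements, tested for anti-inflammatory properties, change in warm-perfused kidneys. Egr1 on the heparin array was just under 2-fold lower than on the warm array, with a log2 difference of -0.998 that did not reach the size limit. This was the 141st largest negative difference of 9393 genes. Egr2 was 4.80-fold lower on the heparin array, with a log2 difference of -2.26 (-1.14 as the median of its probe sets). So 1 of the 2 measured members was called lower, where 1.48% of all genes were. As linear signal, the heparin array held 50.1% of the warm level of Egr1 and 20.8% of that of Egr2.

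On the PPS array Egr1 was 3.23-fold lower than on the warm array, with a log2 difference of -1.69, the 53rd largest negative difference. Egr2 was at least 32.9-fold lower, with its PPS side at the floor (a log2 difference of -5.04, or -2.82 with a floor at the 60th percentile and -1.33 as the median of its probe sets). Both were called lower, where 1.71% of all genes were. Egr2 was below the floor on the PPS array, so after the floor its difference here could not be positive. The PPS array held 30.9% of the warm level of Egr1 and at most 3.04% of that of Egr2. The heparin and PPS comparisons share the warm array.

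Heparin and PPS, given at the same concentration and times, were compared directly. Egr1 was 1.62-fold higher with heparin than with PPS, a log2 difference of 0.69 that did not reach the size limit. Egr2 was at least 6.86-fold higher with heparin, with its PPS side at the floor, but the log2 difference of 2.78 fell to 0.56 with a floor at the 60th percentile and to 0.19 as the median of its probe sets, both under the size limit. So 1 of 2 measured members was called higher, where 0.192% of genes were. That member was Egr2, whose difference from the PPS array could not be negative after the floor. No interval can be given for either difference, since there was 1 array per supplement.

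**Figure D3:**
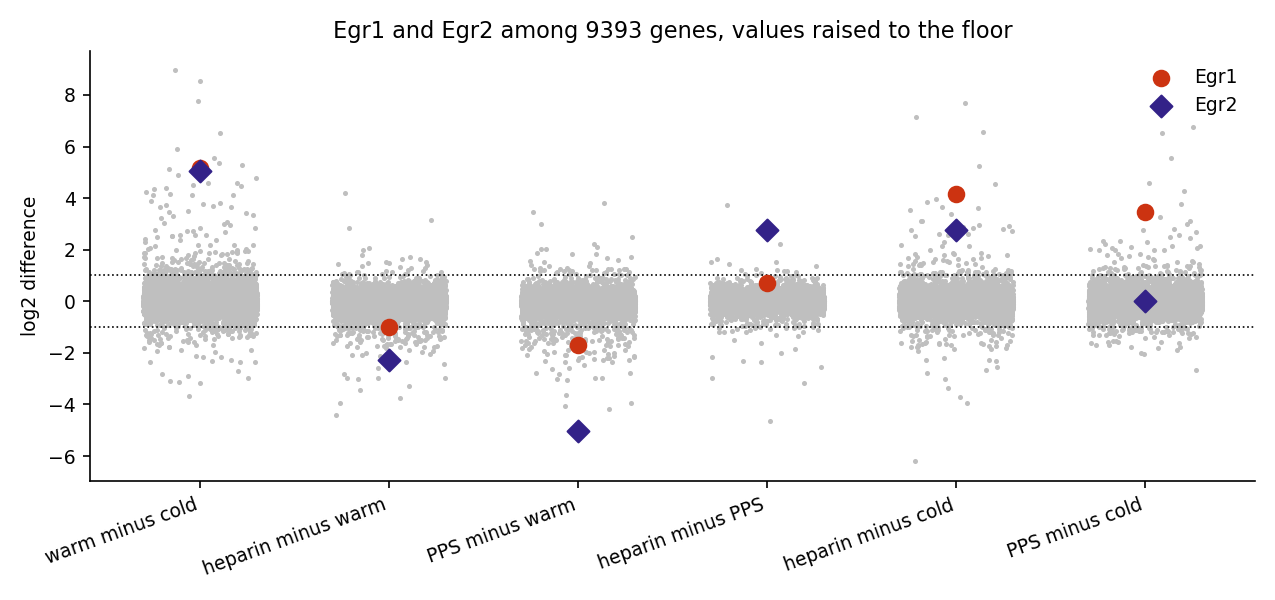
Log2 differences of 9393 genes (grey points, spread sideways at random) in the 6 comparisons, with Egr1 as red circles and Egr2 as blue diamonds; dotted lines mark the size limit of 1. Egr1 is at 5.15 in warm minus cold and -1.69 in PPS minus warm; the Egr2 points there, 5.04 and -5.04, have 1 side at the floor and move with it.

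The size of the Egr2 differences from the cold and PPS arrays follows from where the floor was put. In warm minus cold its log2 difference was 5.04 at the floor used, 7.14 with no floor and 2.82 with a floor at the 60th percentile of all values. In PPS minus warm these values were -5.04, -5.16 and -2.82, and the median of its probe sets gave -1.33. Both members are set against a list of 27 other immediate early genes above the floor. It was drawn up with earlier results of these arrays known, so its counts are not independent evidence. In warm minus cold 26 of the 27 were called higher, at a median of 3.04, where 2.48% of all genes were. With poly-A scaling, in which spiked-in controls described below are set equal on all arrays, 18 were called higher and 4 lay below 0. Nr4a3 and Maff were above the floor on the warm array only, so after the floor none of their other arrays could lie above it. Fosb and Atf3 were below the floor on the cold array, so they could not be lower than cold. In heparin minus warm, 16 of the 27 had a more negative difference than Egr1, and 2 had one more negative than Egr2. These 2 were Ccn1 (-3.93) and Nr4a3 (-3.01), the latter with its heparin side at the floor. In PPS minus warm, 11 of the 27 had a more negative difference than Egr1. The lowest of the list in PPS minus warm, the nuclear receptor Nr4a3, had -3.01 with its PPS side at the floor used. This value moves with the floor, as that of Egr2 does, and was not taken at the other floors. In heparin minus PPS the bZIP factor Atf3 was the highest of the list at 1.01. The order warm, heparin, PPS, cold was seen in 22 of these 27 genes and in 584 of all 9393 genes, or 6.22%. With poly-A scaling it was seen in 14 of the 27 and in 36 of all genes, and with the hybridisation controls set equal in 18 and 122.

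The genes most like each member were found by the root mean square difference of log2 values over the 4 arrays, each gene centred on its own mean. Nearest to Egr1 was Dusp1, a MAP kinase phosphatase, with 0.13. Dusp1 had log2 values of 8.61, 13.40, 12.63 and 11.88 on the cold, warm, heparin and PPS arrays, the same order as Egr1. Then came Nfkbiz, a nuclear regulator of NF-kappaB (0.20), the nuclear receptor Nr4a2 (0.24), the Ras-related GTPase Rasd1 (0.29) and the nuclear receptor Nr4a1 (0.36).

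The nearest genes to Egr2 lay farther away, and for Egr2 the cold and PPS values in this measure are the floor. The chemokine Cxcl2 came first with 0.55, followed by the interferon-inducible chemokine Cxcl10 (0.76), Oasl of the oligoadenylate synthetase family (0.81), the phosphatase subunit Ppp1r15a (0.93) and the chemokine Ccl3 (0.96). Cxcl2 had log2 values of 2.23, 9.30, 7.89 and 5.67 on the cold, warm, heparin and PPS arrays. Egr1 and Egr2 were not among each other's 5 nearest genes, with a root mean square difference of 1.39. Ranked by this measure among all genes, Egr2 was the 75th nearest to Egr1, and Egr1 was the 51st nearest to Egr2. With 4 arrays, such likeness is a description only.

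**Figure D4:**
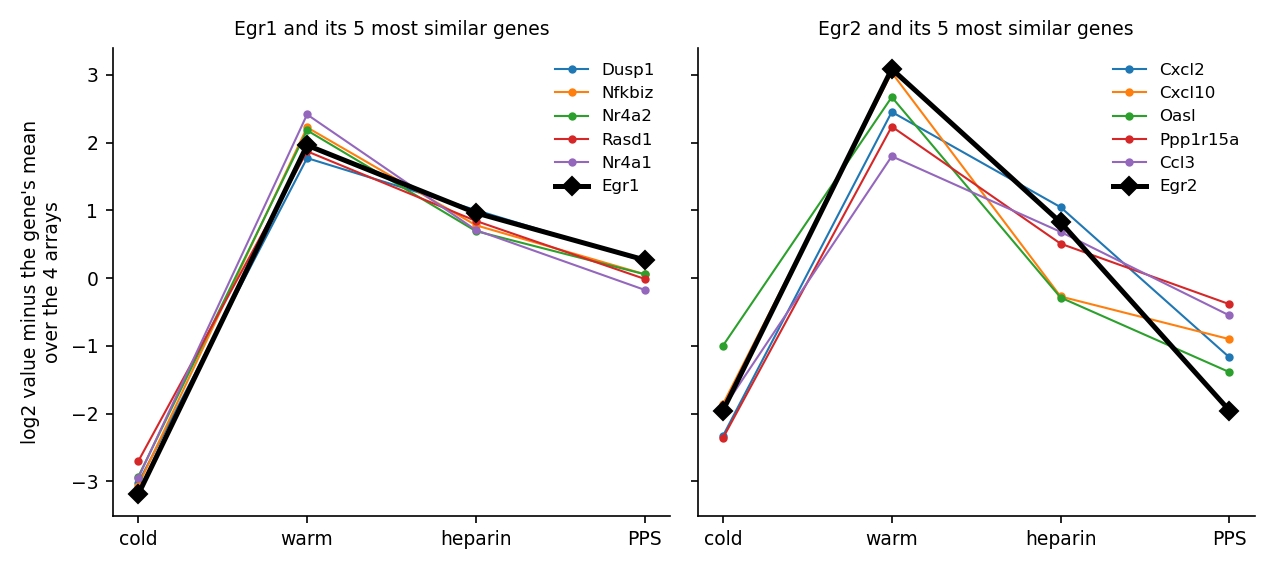
Log2 values minus each gene's mean over the 4 arrays, after the floor, for Egr1 (left) and Egr2 (right) in black and for the 5 genes with the smallest root mean square difference from each in colour; lines only join the points. The genes around Egr1 lie within 0.36 of it, and those around Egr2 between 0.55 and 0.96.

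Among 10 partners and rivals of the Egr proteins, 8 were above the floor and 1 was called higher in warm minus cold, at a median of 0.16 beside -0.0032 for all genes (-0.97 with poly-A scaling and -0.23 with the hybridisation controls set equal). The corepressor Nab2 had log2 values of 5.90 after cold perfusion, 6.46 after warm perfusion, 5.73 with heparin and 6.39 with PPS. Its differences of 0.56 from cold to warm, -0.73 from warm to heparin and -0.07 from warm to PPS were within the size limit, and the first turned to -0.57 and the last to 0.0035 with poly-A scaling. The corepressor Nab1 lay between 9.79 and 10.02 on all 4 arrays. The gene called higher was Wt1, a podocyte factor with related zinc fingers, at 1.01 (-0.12 with that scaling and 0.62 with the hybridisation controls set equal). Sp1, which competes for GC-rich sites, differed by 0.20 or less in warm minus cold and in both supplement comparisons. With poly-A scaling the warm minus cold values of Sp1 and Nab1 were -0.93 and -1.08.

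Of 22 genes that act upstream of Egr transcription, 14 had a named probe set and all 14 were above the floor. Their median log2 difference in warm minus cold was -0.0066 (-1.14 with poly-A scaling), with 1 called higher and 1 lower, where 2.48% and 1.16% of all genes were. Srf, which encodes serum response factor and is itself an early gene, had log2 values of 8.83, 10.13, 9.43 and 9.26 on the cold, warm, heparin and PPS arrays. Its differences were 1.31 from cold to warm (0.18 with poly-A scaling and 0.92 with the hybridisation controls set equal), -0.71 from warm to heparin and -0.87 from warm to PPS. As deposited its order was that of Egr1, but with poly-A scaling the heparin and PPS arrays lay below the cold one, with differences of -0.66 and -0.62. The gene called lower was Egfr, the EGF receptor, with 7.85, 6.40, 5.30 and 5.96 in the same order of arrays. Egfr was also called lower in heparin minus warm (-1.10), a call lost with the hybridisation controls set equal (-0.82). The ternary complex factors Elk1, Elk3 and Elk4 had log2 differences between 0.03 and 0.23 in warm minus cold, which turned to values between -1.09 and -0.90 with poly-A scaling. Array values show transcript levels, not the phosphorylation through which most of these proteins act.

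The list of 30 described Egr targets had 19 genes above the floor. In warm minus cold 5 were called higher and 0 lower, and the median of 0.50 turned to -0.63 with poly-A scaling, where 3 were called higher and 6 lower. The 5 were Cxcl2 (4.78, with the cold side at the floor), the cytokine Il1b (2.39), the leukocyte adhesion molecule Icam1 (1.97, or 0.84 with that scaling), the stress cytokine Gdf15 (1.48, with the cold side at the floor) and the growth arrest gene Gadd45a (1.18, or 0.05 with that scaling). Those with the cold side at the floor could not be lower than cold after the floor. The list was drawn up with earlier results of these arrays known, so this count is not independent evidence.

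With heparin, 4 of the 19 targets were called lower than in the warm group and 0 higher, with a median of -0.37, where 1.48% of all genes were lower. With PPS, 5 were lower and 0 higher, with a median of -0.07, where 1.71% of all genes were lower. Both counts include Gdf15, which, like the listed target Tnf, was above the floor on the warm array only. After the floor, neither gene could be higher with a supplement than in the warm group. With the hybridisation controls set equal, 3 were lower at a median of -0.08 with heparin and 6 at -0.26 with PPS, so the medians do not order the supplements. Icam1 had log2 values of 8.77 after cold perfusion, 10.74 after warm perfusion, 9.27 with heparin and 9.28 with PPS. Il1b had 6.32, 8.71, 7.75 and 7.14 on the same arrays, the order seen for Egr1, although with poly-A scaling its PPS value lay below cold by a log2 difference of -0.23. Other targets were not called in warm minus cold. F3, tissue factor, differed by -0.48 in warm minus cold, and Fn1, fibronectin, by -0.79. Tgfb1 and Plau, a plasminogen activator, differed by 0.0 and -0.10. With poly-A scaling all 4 were called lower, with differences from -1.92 to -1.13.

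**Figure D5:**
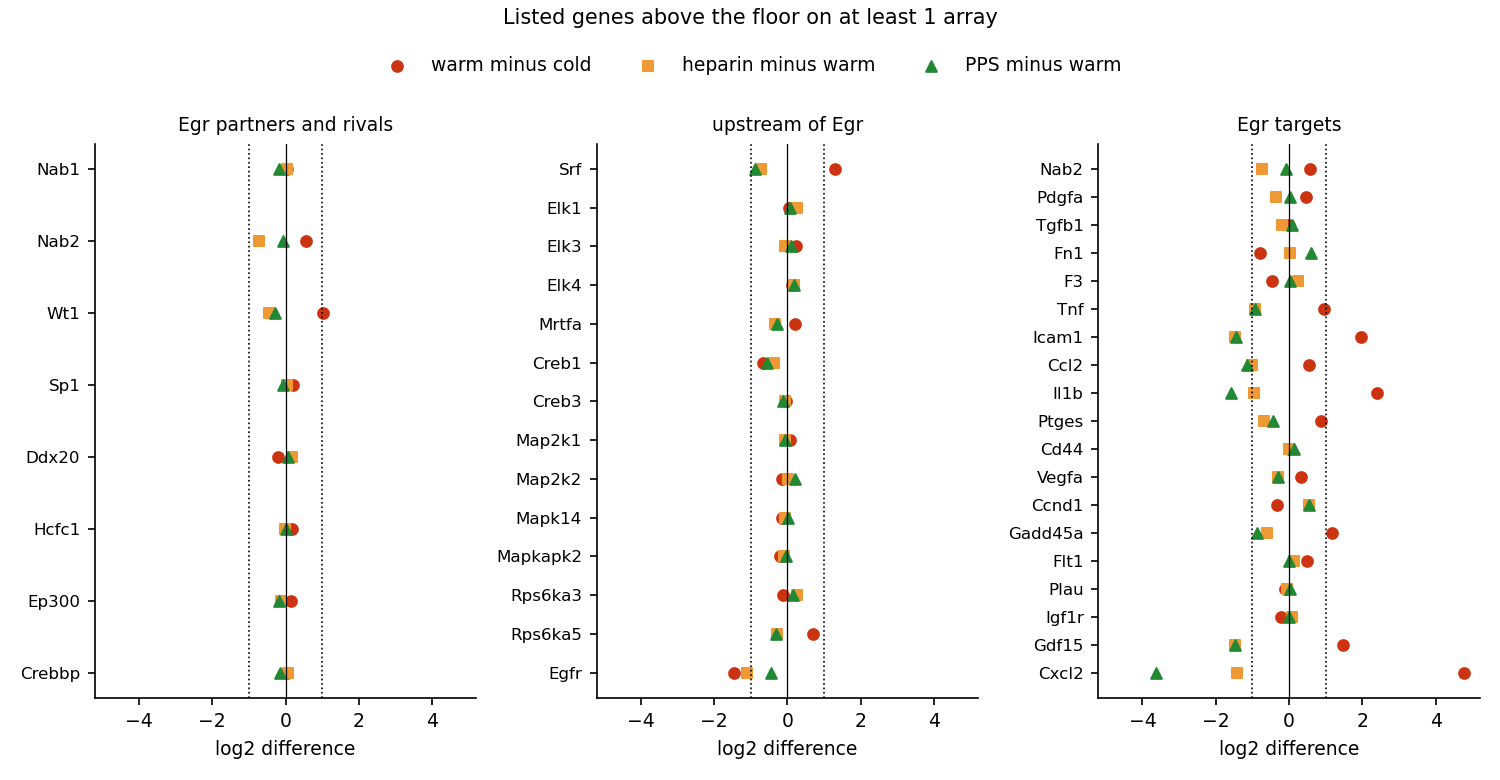
Log2 differences, after the floor, for the listed partners and rivals, upstream genes and described targets of Egr for warm minus cold (red circles), heparin minus warm (orange squares) and PPS minus warm (green triangles); dotted lines mark the size limit of 1. Srf, Icam1, Il1b, Cxcl2, Gdf15 and Gadd45a are among the genes to the right in warm minus cold and to the left in both supplement comparisons. Gdf15 was above the floor on the warm array only, so its directions were fixed by the floor. Many other genes lie nearer 0. All of this is on the values as deposited.

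Several measures of the arrays moved with the warm step, and their part in the Egr results was not tested. The 24 poly-A control probe sets, bacterial transcripts added ahead of the labelling step, differed by a median of 1.25 between warm and cold, 0.08 between heparin and warm and -0.10 between PPS and warm. Scaling the arrays to them moved the all-gene median from cold to warm to -1.13, with 71 genes called higher and 6636 lower in place of 233 and 109. It left Egr1 at 4.02 and Egr2 at 4.77 in that comparison. The 3′ minus 5′ difference of beta-actin, which grows as RNA breaks down, was 2.79 on the cold and between 3.19 and 3.39 on the other arrays. Of 8 stromal markers above the floor, out of 10, 6 were called lower in warm minus cold; the log2 of their summed level was 12.48 after cold perfusion, 11.39 after warm perfusion, 11.65 with heparin and 12.18 with PPS, and Cnn1 and Des were below the floor.

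The 12 kidney tubule and podocyte markers bore out the tissue label: 11 had a named probe set, and all of these were above the floor on every array. In warm minus cold 1 of them, Nphs1, was called higher (1.06) and 0 lower. That call was lost with poly-A scaling and with the hybridisation controls set equal. Of 14 leukocyte markers 7 were above the floor, 0 were called in warm minus cold, and the log2 of their summed level lay between 13.20 and 13.49. Lyz2 alone had 13.31 on the cold array, where the sum was 13.49, so the sum follows mainly this gene. Cd68, Itgam, S100a8, S100a9 and Nkg7 were below the floor on all 4 arrays. Of 10 endothelial markers 9 were above the floor, with a summed level between 13.42 and 13.77 and 0 called in warm minus cold. These counts depend on the scaling. With poly-A scaling, 6 of the 11 kidney, 4 of the 7 leukocyte and 4 of the 9 endothelial markers were called lower, beside 6636 of 9660 genes. Of 7 red blood cell markers 2 were above the floor, the haemoglobin chain Hbb (-1.14 in warm minus cold) and Slc4a1 (0.57). These moved in opposite directions as deposited, so their summed level, between 10.45 and 10.93, does not give the red blood cell content. Hbb alone had log2 values of 9.85, 8.71, 8.20 and 9.22 on the cold, warm, heparin and PPS arrays. The markers Alas2, Epb42 and Ahsp were below the floor on all 4 arrays. In whole kidney RNA, fewer cells of a type and less RNA per cell cannot be told apart, and the cells that hold the Egr transcripts are not known from these arrays.

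Genes with a CArG box in the same window were counted over all genes with a promoter in the table, as a description. Of 103 such genes above the floor, 7 were called higher in warm minus cold, and 5 of 101 without Egr1 and Egr2. Of 7771 genes with no CArG box 186 were called higher, or 2.39%. With poly-A scaling 4 of the 103 and 54 of the 7771 were called higher. At least 2 CArG boxes were found in 4 genes above the floor, which were named after their values were seen. They were Egr1, Dusp5 (1.63 in warm minus cold, or 0.50 with poly-A scaling), Srf (1.31, or 0.18) and Hnrnpd, an RNA-binding protein (0.36, or -0.77).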

How the data were processed

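Log2 expression values per probe set were deposited by the authors for 31099 probe sets on 4 arrays. The submitters' processing notes name GCRMA, with no version, and the values, from 2.11 to 16.4, were taken as log2. Each array's number limits the precision: there is 1 per group. The 57 Affymetrix controls were left out. Of the others, 20826 probe sets have 1 gene symbol and 436 have several, which were not used; 9780 have no name here. Current symbols came from RefSeq (GRCr8) by Entrez identifier, which matched 20758. For each of 14217 genes the probe set with the highest mean was taken.

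Values under the 50th percentile of all values, 4.51, were raised to it, and 9393 genes above it on at least 1 array were analysed. Folds with 1 side at this floor are lower bounds. Single comparisons have no test. The warm-perfused arrays were set against cold with limma 3.58.1 (lmFit, eBayes, Benjamini-Hochberg), with 2 residual degrees of freedom, on values without the floor. The code was tried on simulated data with the same noise for every gene and no supplement effects. That trial therefore does not show how well the fit performs on these arrays. The fit assumes that the lone cold array varies like the others. Motifs were searched in 27457 RefSeq promoters with Python 3.11.15; Egr1 and Egr2, but not Egr3, were matched.

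The genes, lists and rules were chosen with earlier results of these data known. Named are the Egr probe sets, Egr4, Nab1, Nab2 and Srf, up to 4 listed genes per comparison with the largest differences past the limit, the 5 nearest genes per member and control probe sets; other named genes were chosen after their values were seen. Alternatives covered the probe set, the floor, the scaling and the size limit.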

Additional observations from a re-analysis of the deposited data

How the results depend on the processing

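The Egr1 differences kept their direction under all 9 alternatives of floor, probe set and scaling tried, but only the scalings could change them. Egr1 has 1 probe set and lay above every floor tried, so the other alternatives left its values as they were. The Egr2 differences kept their direction wherever Egr2 could be measured, apart from PPS minus cold, which is 0 with the floor. With the other Egr2 probe set, Egr2 was below the floor on all arrays, so that members past 2-fold numbered 1 (warm against cold), 0 (heparin against warm), 1 (PPS against warm), 0 (heparin against PPS) and 1 (heparin against cold). With the median of its probe sets, Egr2 differed by 0.19 in heparin minus PPS and 0.19 in heparin minus cold, leaving 0 and 1 members past 2-fold. A floor at the 60th percentile (6.73) gave 0.56 in both, again with 0 and 1 members. With a floor at the 25th percentile or no floor, Egr2 differed by 1.98 in PPS minus cold, for 2 members. Egr1 passed the limit in heparin minus warm after scaling to the poly-A controls (-1.13, for 2 members) and in heparin minus PPS after scaling to the hybridisation controls (1.16, for 2 members). A limit of 1.5-fold gave 2 members in both of those comparisons.

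Scaled to the poly-A controls, limma called 2 members among 37 genes called higher and 8954 lower, and 0 members in the other 5 alternatives, those without 1 warm-perfused array included. Adjusted p by limma ran from 0.00061 to 0.45 for Egr1 and from 0.048 to 0.65 for Egr2 over these alternatives. The causes were not tested. No paired analysis was possible because each group has 1 array.

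Among all genes, 342, 175, 209, 46, 196 and 171 were past 2-fold in warm against cold, heparin against warm, PPS against warm, heparin against PPS, heparin against cold and PPS against cold. By construction, a limit of 1.5-fold gave 1020, 526, 517, 252, 625 and 628 and one of 3-fold 125, 50, 77, 14, 83 and 51. The 60th percentile floor gave 108, 136, 20, 119 and 90 in the last 5. Scaling to the poly-A controls gave 6707, 7884 and 5962 in the comparisons with cold, and scaling to the hybridisation controls 156 in heparin minus PPS and 614 in PPS minus cold. With 1 array per group, no difference between single arrays can be set against a spread.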
